A study of Homo sapiens with 4 samples.

Results

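The fibroblast growth factor (FGF), platelet-derived growth factor (PDGF), vascular endothelial growth factor (VEGF), hepatocyte growth factor (HGF) and stem cell factor systems were examined in RNA-seq data of IMR90, a fibroblast line from human lung, with 4 libraries in all. Genes were taken by name: FGF followed by a number, FGFR followed by 1 digit, FGFRL1, names that begin with PDGF or VEGF, and HGF, MET, FLT1, KDR, FLT4, FIGF, PGF, KIT and KITLG. The rule found 46 of the 22679 gene names in the files, on 47 loci. Of these, 23 had at least 1 FPKM (fragments mapped to a gene, scaled to its length and to the library's depth) in at least 1 library and were compared, as were 12183 genes in all.

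There was 1 library in each of 4 groups, and every group was an IMR90 culture at passage 16. The oncogene-induced senescence (OIS) library came from cells with a retroviral ER:RasV12 fusion, a RAS oncogene switched on by tamoxifen, kept in 10 nM tamoxifen for 8 days. The H3.3cs1 late and H3.3cs1 early libraries came from cells infected with a retrovirus that carries cleaved, Flag-tagged H3.3, a replacement histone, and harvested on day 13 and day 3. The growing library came from cells with the empty vector pBabe on day 13. No culture with tamoxifen alone and no empty-vector culture of day 3 was analysed here, so RAS activation, tamoxifen and culture schedule cannot be told apart, nor can the cleaved histone and recent infection on day 3.

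With 1 library a group there is no replicate check, and no difference has a test, a p-value or an SD. Differences are in log2(FPKM + 1), folds are on the same scale, where changes of low genes come out too small, and "rose" and "fell" mean a difference of at least 2-fold. The construct matched its label in OIS, with HRAS at 3153 FPKM, against 47.4 FPKM in growing. For the H3.3cs1 libraries, H3F3B was at 449.7 FPKM in late and 229 in early, against 105 in growing, and H3F3A, the other H3.3 gene, at 132 and 130 FPKM, against 190 in growing. The labels do not say which of these genes the construct carries. The summed level of 10 fibroblast markers was 7275 FPKM in OIS, 13904 in H3.3cs1 late, 8445 in H3.3cs1 early and 12991 in growing. VIM, FN1, COL1A1 and COL1A2 made up most of it in each library, while S100A4 stayed between 6.75 and 18.3 FPKM. In OIS 5 of the 10 fell, DCN (5.47-fold), COL1A1 (4.10-fold), COL1A2 (3.18-fold) and THY1 (2.98-fold) the most. Of all compared genes, 8.17% fell in OIS. In H3.3cs1 early COL1A1 (2.23-fold) and DCN (2.93-fold) fell and S100A4 (2.48-fold) rose, beside 3.96% and 1.4% of all compared genes. LUM rose 3.86-fold in H3.3cs1 late, beside 3.51%. In such bulk RNA, fewer cells of a type and less RNA per cell cannot be told apart.

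These growth factors are secreted ligands of receptor tyrosine kinases. A ligand brings receptor chains together, the kinases phosphorylate each other, and adaptors carry the signal to RAS and the MAP kinases, to PI3 kinase and to phospholipase C gamma. Fibroblasts are known as responders to PDGF and FGF and as a source of HGF, VEGFA, KITLG and FGF7 for neighbouring epithelial, endothelial and blood-forming cells.

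In OIS, 6 of these genes rose and 4 fell. The rises were mostly of ligands, which were also most of the compared genes. FGF2, HGF, KITLG, VEGFA, PDGFB and the receptor gene FGFR4 rose, while FGF5 and the receptor genes MET, KIT and PDGFRB fell. Over all compared genes, 9.13% rose and 8.17% fell in OIS (17.3% either way). In H3.3cs1 late, FGF9 and KIT rose and FGF5 and KITLG fell, beside 3.51% of all compared genes that rose and 5.47% that fell (8.99% either way). In H3.3cs1 early, 0 rose and FGF5, FLT1 and KIT fell, beside 1.4% and 3.96% of all compared genes (5.37% either way). The 3 comparisons share the growing library. In H3.3cs1 late against H3.3cs1 early, FGF9, FGFRL1, FLT1, KIT and PDGFRB rose and KITLG fell, beside 5.47% and 3.4% of all compared genes (8.87% either way).

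**Figure D1:**
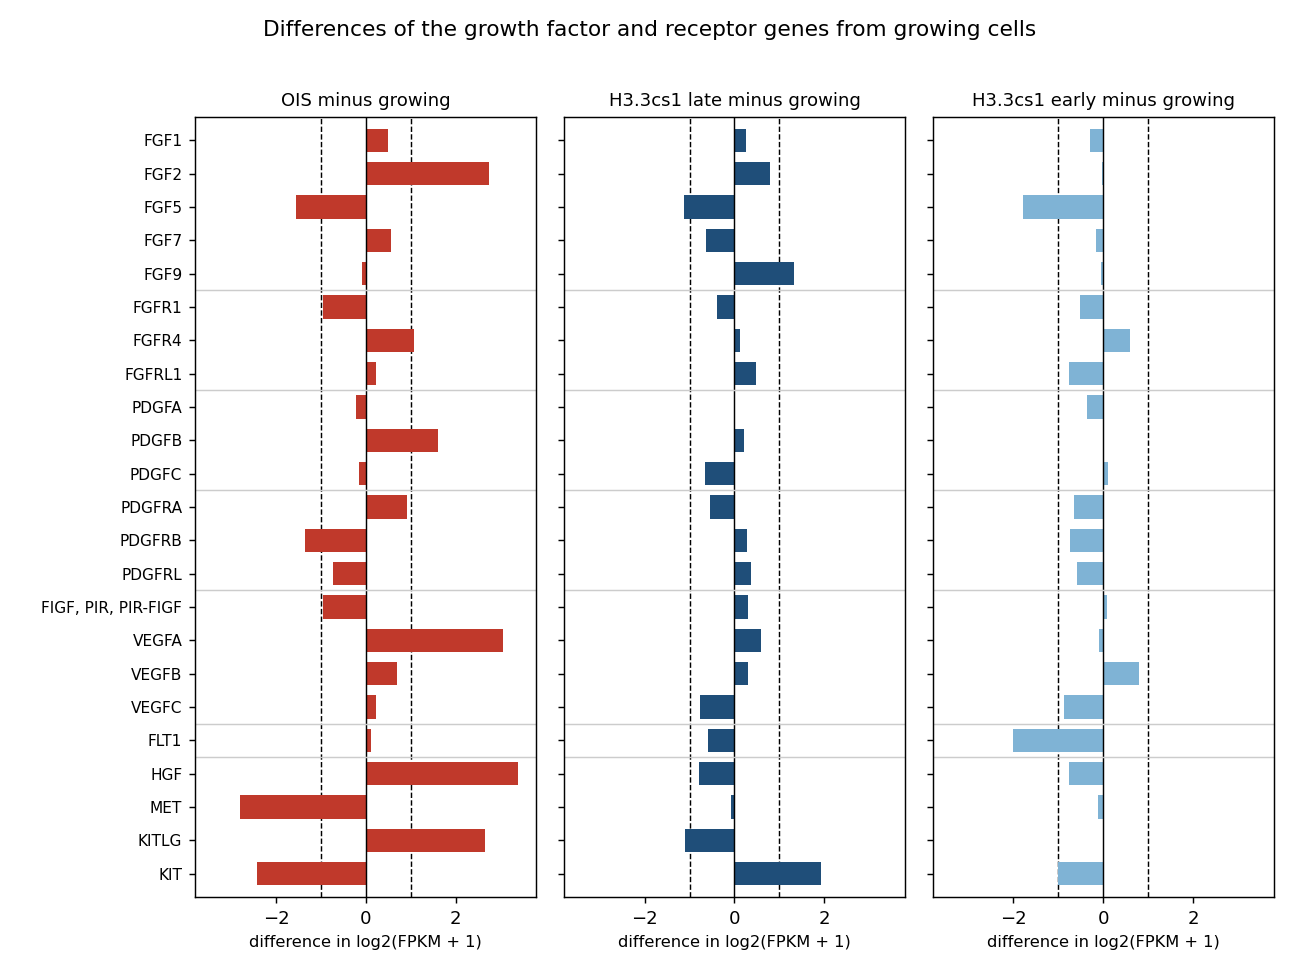
Difference from growing in log2(FPKM + 1) for the 23 compared genes, 1 panel each for OIS, H3.3cs1 late and H3.3cs1 early, with dashed lines at 2-fold. Bars pass the lines for 10 genes in OIS, 4 in H3.3cs1 late and 3 in H3.3cs1 early, where KIT ends at the line.

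The 23 compared genes had a median difference of 0.23 in OIS, where that of all compared genes was 0.03. In H3.3cs1 late the medians were 0.12 and -0.04, in H3.3cs1 early -0.30 and -0.02, and in H3.3cs1 late against early 0.22 and -0.04. FGF9, FGFR4 and PDGFB were compared because of the library in which they were high, so they had to differ. A scaling that gives every library an equal sum of FPKM over named genes (called rescaling to the same sum below) moved the median of all genes to -0.16 in OIS, to 0.19 in H3.3cs1 early, and to -0.26 between H3.3cs1 late and early. Of all changed genes in OIS, 52.8% were higher, and 37.7% after that rescaling. For H3.3cs1 early these shares were 26.1% and 48.3%, and for H3.3cs1 late against early 61.7% and 36.4%.

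**Figure D2:**
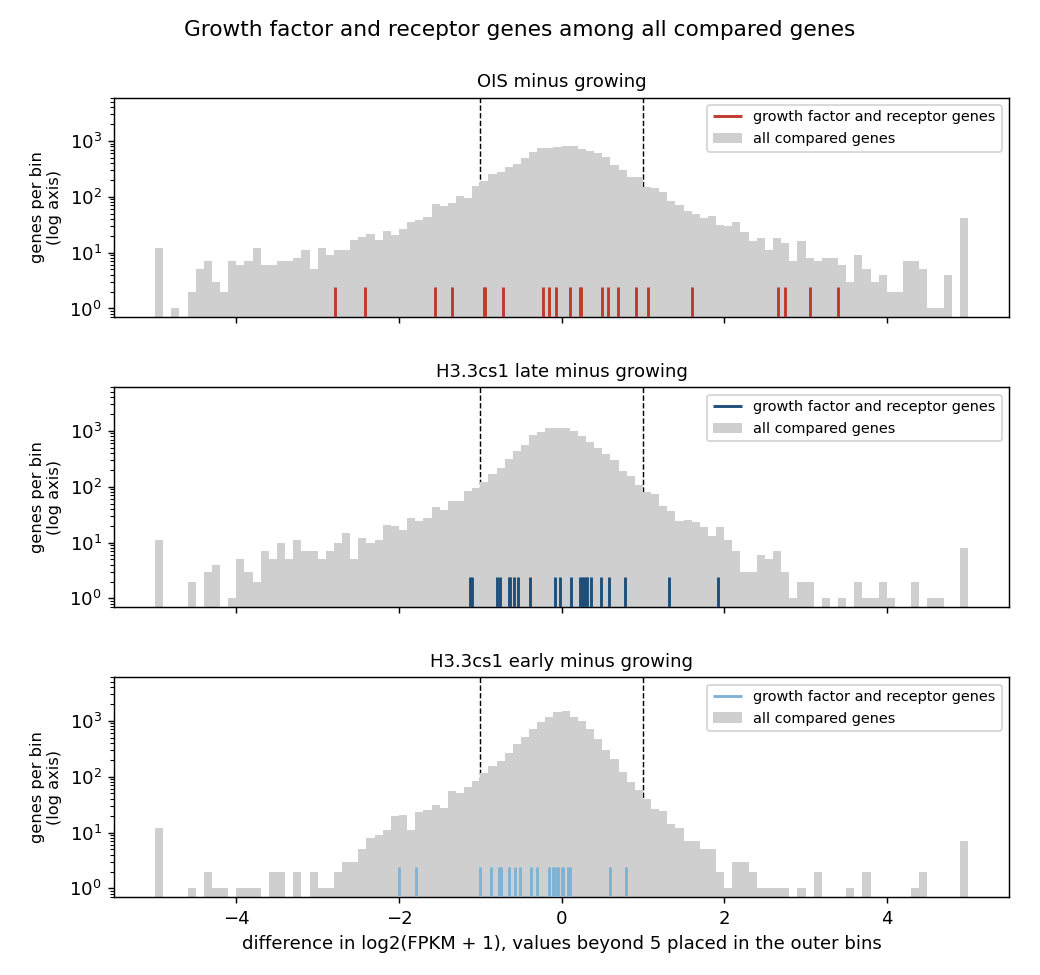
Difference from growing in log2(FPKM + 1) for all 12183 compared genes (grey bars, number of genes per bin on a log axis) and for the 23 growth factor and receptor genes (coloured lines), in OIS, H3.3cs1 late and H3.3cs1 early, with dashed lines at 2-fold. The coloured lines run from -2.79 (MET) to 3.40 (HGF) in OIS, and from -2.01 (FLT1) to 0.79 (VEGFB) in H3.3cs1 early.

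On the log2(FPKM + 1) scale, HGF had the largest rise and MET the largest fall of these genes in OIS. With a pseudocount of 0.1, PDGFB (3.99 in log2, against 3.52 for HGF) and KIT (-4.25, against -3.52 for MET) took these places. HGF, a factor made by mesenchymal cells that makes epithelial cells scatter and grow, was at 111 FPKM in OIS, 5.12 in H3.3cs1 late, 5.25 in H3.3cs1 early and 9.64 in growing. It rose 10.6-fold in OIS, and both H3.3cs1 libraries lay below growing without passing 2-fold. In OIS, 93.9% of the compared genes had a lower FPKM than HGF, against 51.8% in growing. MET, which encodes the HGF receptor, was at 1.07 FPKM in OIS, 12.5 in H3.3cs1 late, 12.2 in H3.3cs1 early and 13.3 in growing. It fell 6.91-fold in OIS, and the other 3 libraries lay close together. The ratio of HGF to MET in FPKM was 104 in OIS, 0.408 in H3.3cs1 late, 0.429 in H3.3cs1 early and 0.726 in growing. The OIS ratio divides by a MET value of 1.07 FPKM, so its size is uncertain. MET is known mainly from epithelial cells. Of 8 epithelial markers, 4 were compared and 2 of them fell in OIS, beside 8.17% of all compared genes. KRT18 fell to 13.1 FPKM against 80.0 in growing and KRT19 to 0.160 FPKM against 2.33. CLDN4 was higher in OIS without passing 2-fold, at 3.90 FPKM against 1.54. In H3.3cs1 early KRT19 (10.9 FPKM) and CLDN4 (4.25 FPKM) rose, beside 1.4% of all compared genes. KRT18 rose in H3.3cs1 late, at 170 FPKM, beside 3.51%. The summed level of the 8, most of it from KRT18, was 22.4 FPKM in OIS, 185 in H3.3cs1 late, 73.0 in H3.3cs1 early and 91.6 in growing, while EPCAM and CDH1 stayed below 1 FPKM in all 4, and the part of such cells in the MET result was not tested.

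KITLG and its receptor gene KIT also went opposite ways in OIS and in H3.3cs1 late. KITLG, the ligand known as stem cell factor, was at 91.5 FPKM in OIS, 5.84 in H3.3cs1 late, 13.9 in H3.3cs1 early and 13.7 in growing. It rose 6.30-fold in OIS and fell 2.14-fold in H3.3cs1 late, while H3.3cs1 early lay at the growing level. KIT, the receptor on mast cells, melanocytes and germ cells, was at 0.187 FPKM in OIS, 23.1 in H3.3cs1 late, 2.17 in H3.3cs1 early and 5.36 in growing. It fell 5.36-fold in OIS, rose 3.78-fold in H3.3cs1 late and fell 2.01-fold in H3.3cs1 early, the last by the narrowest margin of any call (-1.0 in log2, -0.98 after centring on the median of all genes and -0.82 after rescaling to the same sum). In H3.3cs1 late against early KIT rose 7.59-fold, the largest change among these genes in that comparison (with a pseudocount of 0.1, FGF9 at 3.55 in log2 passed KIT at 3.35), and KITLG fell 2.18-fold. The ratio of KITLG to KIT in FPKM was 489 in OIS, 0.253 in H3.3cs1 late, 6.40 in H3.3cs1 early and 2.55 in growing. The OIS ratio divides by a KIT value of 0.187 FPKM, so its size is uncertain. KIT was the higher of the pair in H3.3cs1 late, and KITLG in the other 3 libraries. Among 8 leukocyte and mast cell markers, the mast cell genes TPSAB1 and MS4A2 were listed at 0 in all 4 libraries, and CPA3 was listed at 0 in OIS and was at 0.646 FPKM in H3.3cs1 late, 0.0323 in H3.3cs1 early and 0.0358 in growing. The summed level of the 8 was 89.6 FPKM in OIS, 40.2 in H3.3cs1 late, 52.6 in H3.3cs1 early and 56.4 in growing, nearly all of it from the joined CD68,MPDU1 locus, whose value cannot be read as that of CD68.

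**Figure D3:**
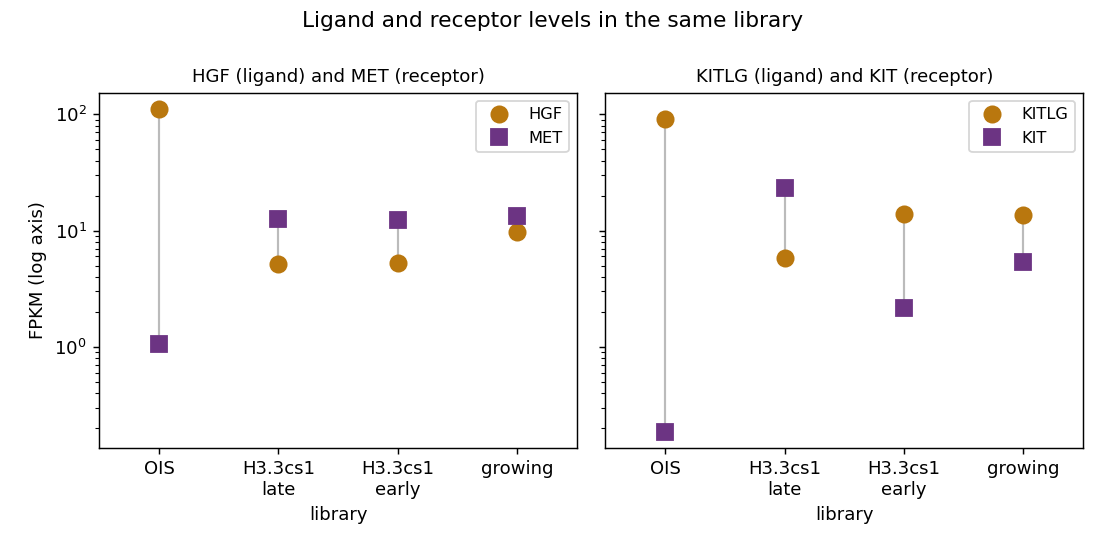
FPKM on a log axis of HGF and MET (left) and of KITLG and KIT (right) in the OIS, H3.3cs1 late, H3.3cs1 early and growing libraries, with circles for the ligand, squares for the receptor and a grey line joining the pair. The ligand stands far above the receptor in OIS, and KIT stands above KITLG in H3.3cs1 late.

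The promoters of the ligand genes HGF, KITLG and FGF2, which rose together in OIS, and of the receptor genes MET and KIT, which fell there, are shown from RefSeq (build GRCh38.p14), each from 250 bases before to 50 bases after the gene's start, 5′ to 3′ on the gene's strand, with GC boxes (GGGCGG on either strand, a known binding site of SP1) in capitals. They lie at chr7:81769998-81770297 (HGF, minus strand), chr12:88580422-88580721 (KITLG, minus), chr4:122826581-122826880 (FGF2, plus), chr7:116671946-116672245 (MET, plus) and chr4:54657707-54658006 (KIT, plus). The first bases after the start were found in a transcript for HGF, KITLG, FGF2 and KIT, but not for MET. The start used for the MET window is therefore less certain.
HGF: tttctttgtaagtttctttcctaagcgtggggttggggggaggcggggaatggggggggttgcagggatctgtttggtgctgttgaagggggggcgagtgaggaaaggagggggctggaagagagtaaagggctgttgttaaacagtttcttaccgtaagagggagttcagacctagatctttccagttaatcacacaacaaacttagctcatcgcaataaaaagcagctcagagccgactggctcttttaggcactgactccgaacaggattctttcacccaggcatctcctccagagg
KITLG: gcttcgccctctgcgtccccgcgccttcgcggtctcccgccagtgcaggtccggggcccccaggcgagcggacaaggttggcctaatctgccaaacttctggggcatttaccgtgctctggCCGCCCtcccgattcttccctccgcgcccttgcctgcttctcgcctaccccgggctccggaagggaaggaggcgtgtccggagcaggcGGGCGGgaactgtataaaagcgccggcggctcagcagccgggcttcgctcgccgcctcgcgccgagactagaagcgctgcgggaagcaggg
FGF2: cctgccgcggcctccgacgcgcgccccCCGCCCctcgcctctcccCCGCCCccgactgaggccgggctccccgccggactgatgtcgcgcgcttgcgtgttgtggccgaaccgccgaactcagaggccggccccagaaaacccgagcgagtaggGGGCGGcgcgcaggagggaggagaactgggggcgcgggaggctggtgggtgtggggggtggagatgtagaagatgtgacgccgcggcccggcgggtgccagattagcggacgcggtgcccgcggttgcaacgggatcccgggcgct
MET: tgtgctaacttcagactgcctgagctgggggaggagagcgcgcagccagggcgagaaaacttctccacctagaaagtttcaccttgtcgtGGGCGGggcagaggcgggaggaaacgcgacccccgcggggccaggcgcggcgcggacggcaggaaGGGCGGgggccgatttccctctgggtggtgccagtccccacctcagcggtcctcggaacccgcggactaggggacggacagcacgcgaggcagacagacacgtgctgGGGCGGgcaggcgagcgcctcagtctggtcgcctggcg
KIT: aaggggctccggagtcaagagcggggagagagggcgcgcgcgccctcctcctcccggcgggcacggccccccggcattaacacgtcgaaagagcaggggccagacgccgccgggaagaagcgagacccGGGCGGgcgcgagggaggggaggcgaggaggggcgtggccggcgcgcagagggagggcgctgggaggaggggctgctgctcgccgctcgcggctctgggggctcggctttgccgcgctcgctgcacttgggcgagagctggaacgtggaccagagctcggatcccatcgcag

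A GC box was found 3 times in the promoter of FGF2, 2 times in that of KITLG, 3 times in that of MET and 1 time in that of KIT, with 0 in that of HGF, whose GC content was 51% against 69.3% to 74.7% in the others. Of the 35116 promoters in the RefSeq table, 45% held a GC box. The AP-1 motif TGANTCA (7.71% of all promoters), the cAMP response element TGACGTCA (1.85%) and the NF-kappaB consensus (5.91%), searched on both strands, had 0 matches in these 5 windows. The hypoxia response core ACGTG (21.4%) had 2 matches in MET, which overlap each other, and 2 in KIT. All matches in MET depend on the less certain start of its window. Of the 23 compared genes, 17 had a promoter in the table, and FGF9, FGFR1, PDGFB, PDGFC, PDGFRL and VEGFA did not. Of the 17, 14 held a GC box and 5 a hypoxia response core (FGF1, FGFR4, FGFRL1, KIT and MET). These are counts of genes with a match in any promoter listed for the gene. The shares of 45% and 21.4% count single promoters of all genes, compared here or not, so the counts cannot be set directly against them. AP-1 matches lay in the promoters of FGF1, PDGFRA and VEGFD (the current name of FIGF). A cAMP response element lay in that of FLT1, and NF-kappaB matches in those of FGFR4 and FLT1. A match is a run of letters, and the data hold no measurement of binding.

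Among the FGF ligands, FGF2 rose in OIS while FGF5 fell in all 3 libraries set against growing. FGF2, or basic FGF, a broad mitogen of mesenchymal and endothelial cells, was at 111 FPKM in OIS, 27.7 in H3.3cs1 late, 15.3 in H3.3cs1 early and 15.7 in growing. It rose 6.72-fold in OIS, and H3.3cs1 late lay above growing at 1.72-fold. NUDT6, a gene whose exons overlap those of FGF2 on the opposite strand in GENCODE 29, moved with it in OIS, at 62.5 FPKM in OIS, 11.4 in H3.3cs1 late, 11.0 in H3.3cs1 early and 9.66 in growing. The library kit keeps no record of strand, so reads from the overlap of FGF2 and NUDT6 cannot be told apart.

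FGF5, known for ending the growth phase of the hair cycle, was the highest FGF in growing. It was at 23.9 FPKM in OIS, 32.4 in H3.3cs1 late, 20.1 in H3.3cs1 early and 72.1 in growing. It fell 2.94-fold in OIS, 2.19-fold in H3.3cs1 late and 3.47-fold in H3.3cs1 early, so growing was the highest of the 4 libraries. FGF5 made up 13.7% of the summed FPKM of the 18 FGF ligand genes in OIS, 36.3% in H3.3cs1 late, 34.3% in H3.3cs1 early and 62.7% in growing. FGF2 made up 63.7% in OIS, 31.0% in H3.3cs1 late, 26.1% in H3.3cs1 early and 13.7% in growing.

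FGF1, or acidic FGF, was at 25.6 FPKM in OIS, 21.3 in H3.3cs1 late, 14.2 in H3.3cs1 early and 17.8 in growing, summed over 2 loci that moved in opposite directions. Locus XLOC_018859 held 25.0 FPKM in OIS, 5.82 in H3.3cs1 late, 9.65 in H3.3cs1 early and 12.2 in growing. Locus XLOC_019351 held 0.554 FPKM in OIS, 15.5 in H3.3cs1 late, 4.58 in H3.3cs1 early and 5.59 in growing. The second locus fell 4.24-fold in OIS and rose 2.51-fold in H3.3cs1 late, while the first was at 1.97-fold higher in OIS and 1.94-fold lower in H3.3cs1 late, both under 2-fold. The files do not say how these loci differ, and the sum hides the split.

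FGF7, or keratinocyte growth factor, which acts on epithelial cells, was at 13.7 FPKM in OIS, 5.38 in H3.3cs1 late, 7.93 in H3.3cs1 early and 8.94 in growing, with no change of 2-fold. FGF9, a ligand known from lung and gonad development, was at 0.0395 FPKM in OIS, 1.74 in H3.3cs1 late, 0.0570 in H3.3cs1 early and 0.0947 in growing. It rose 2.50-fold in H3.3cs1 late and stayed low there, with 16.4% of the compared genes below it. The other 13 FGF ligand genes stayed at or below 0.371 FPKM, and the 4 intracellular FGF homologous factors (FGF11, FGF12, FGF13 and FGF14), which are not secreted, at or below 0.920 FPKM. FGF4, FGF6, FGF13, FGF16 and FGF21 were listed at 0 in all 4 libraries.

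**Figure D4:**
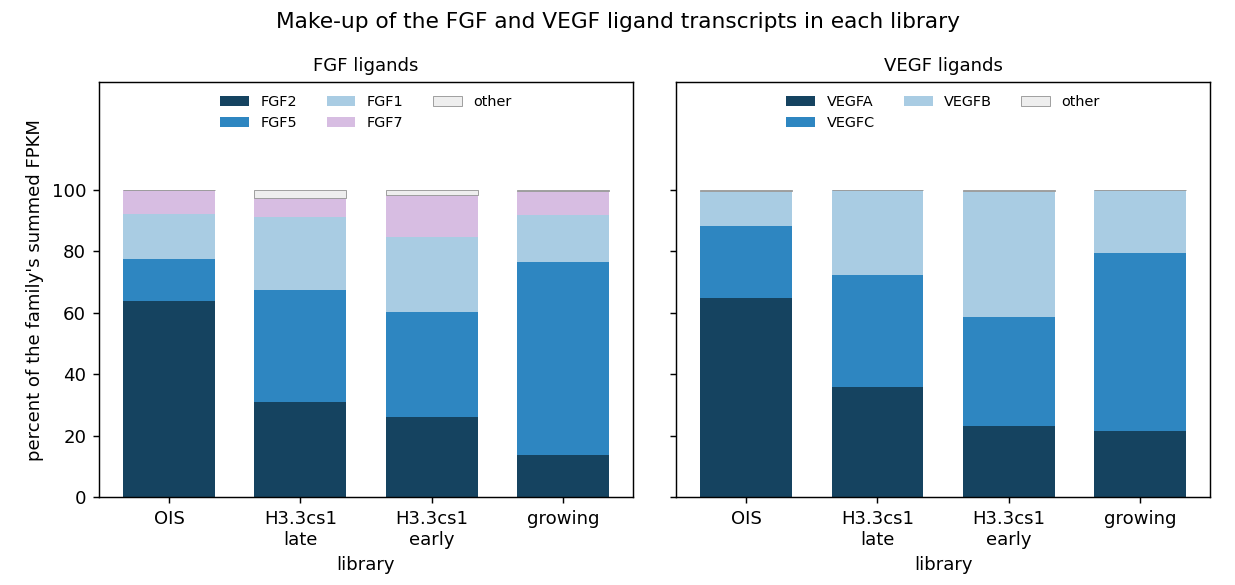
Share of each gene in the summed FPKM of the FGF ligand genes (left) and of VEGFA, VEGFB, VEGFC and PGF (right), in percent, for the OIS, H3.3cs1 late, H3.3cs1 early and growing libraries. FGF2 (63.7%) and VEGFA (64.7%) hold the largest shares in OIS, and FGF5 (62.7%) and VEGFC (57.8%) in growing.

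Among the FGF receptors, FGFR1, the main FGF receptor of fibroblasts, was at 25.1 FPKM in OIS, 37.3 in H3.3cs1 late, 34.2 in H3.3cs1 early and 49.3 in growing. It was 1.93-fold lower in OIS, just under 2-fold, and past it after rescaling to the same sum (-1.17 in log2) and quantile normalization (-1.08). FGFR1 made up 92.0% of the summed FPKM of FGFR1 to FGFR4 in OIS, 98.3% in H3.3cs1 late, 96.3% in H3.3cs1 early and 98.6% in growing. FGFR4 was at 1.64 FPKM in OIS, 0.368 in H3.3cs1 late, 0.897 in H3.3cs1 early and 0.259 in growing. Its 2.09-fold rise in OIS is a change between low values and was 0.92 in log2 after rescaling to the same sum. FGFR2 and FGFR3 stayed at or below 0.541 FPKM. FGFRL1, a receptor that binds FGF and lacks the kinase domain, was at 42.1 FPKM in OIS, 49.9 in H3.3cs1 late, 20.7 in H3.3cs1 early and 35.5 in growing. It rose 2.35-fold in H3.3cs1 late against early, and its difference was 0.99 in log2 after rescaling to the same sum.

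Among the PDGF genes, PDGFRB fell and PDGFB rose in OIS. PDGFC, which signals mainly through PDGFRA after a protease has removed its CUB domain, was the most abundant ligand of the family, at 22.0 FPKM in OIS, 15.3 in H3.3cs1 late, 26.6 in H3.3cs1 early and 24.6 in growing. It made up between 84.4% and 91.6% of the summed FPKM of PDGFA to PDGFD and passed 2-fold in no comparison as reported, though it lay at -1.0 in log2 in H3.3cs1 late against early after rescaling to the same sum. PDGFA, a ligand of PDGFRA, was at 1.66 FPKM in OIS, 2.08 in H3.3cs1 late, 1.41 in H3.3cs1 early and 2.12 in growing, with no change of 2-fold. PDGFB, a ligand of both receptor chains, was at 2.16 FPKM in OIS, 0.215 in H3.3cs1 late, 0.0437 in H3.3cs1 early and 0.0419 in growing, and rose 3.03-fold in OIS. PDGFD, a ligand of PDGFRB, stayed at or below 0.991 FPKM.

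The PDGF receptor genes moved apart in OIS. PDGFRB was at 20.1 FPKM in OIS, 64.1 in H3.3cs1 late, 31.0 in H3.3cs1 early and 52.8 in growing. It fell 2.56-fold in OIS, and rose 2.03-fold in H3.3cs1 late against early, a call lost after rescaling to the same sum (0.78 in log2) and quantile normalization (0.86). PDGFRA, which marks many fibroblasts, was at 52.3 FPKM in OIS, 18.5 in H3.3cs1 late, 17.1 in H3.3cs1 early and 27.3 in growing, and its 1.88-fold difference in OIS did not pass 2-fold. The ratio of PDGFRA to PDGFRB in FPKM was 2.61 in OIS, 0.288 in H3.3cs1 late, 0.551 in H3.3cs1 early and 0.517 in growing, so PDGFRA was the higher of the pair in OIS and PDGFRB in the other 3 libraries. PDGFRL, which encodes a protein similar to the outer part of PDGF receptors, was at 6.32 FPKM in OIS, 14.5 in H3.3cs1 late, 7.13 in H3.3cs1 early and 11.1 in growing, with no change of 2-fold. Of 8 pericyte and smooth muscle markers, cells in which PDGFRB is prominent, 6 were compared. In OIS CNN1 and ACTA2 fell and RGS5 rose, beside 8.17% and 9.13% of all compared genes. In H3.3cs1 late CNN1 rose and CSPG4 fell, beside 3.51% and 5.47%. The summed level of the 8 markers was 169 FPKM in OIS, 900.0 in H3.3cs1 late, 277 in H3.3cs1 early and 595 in growing, the same order of libraries as PDGFRB. ACTA2 and CNN1 made up most of that sum, RGS5, CSPG4, MCAM and NOTCH3 did not follow the order of PDGFRB, and DES and MYH11 were below 1 FPKM in each library. Their part in the PDGFRB result was not tested.

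**Figure D5:**
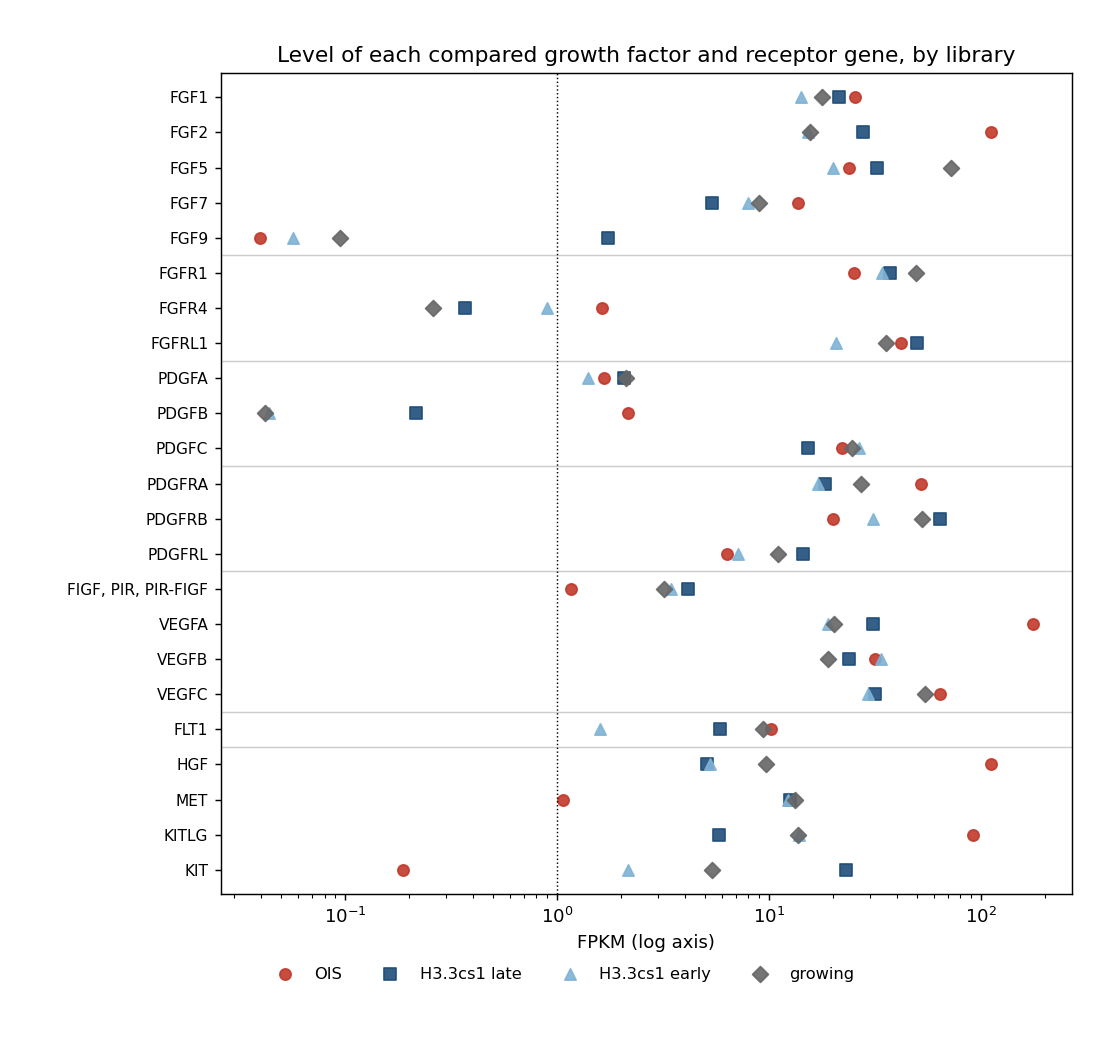
FPKM on a log axis of the 23 compared genes in the OIS (red circles), H3.3cs1 late (dark blue squares), H3.3cs1 early (light blue triangles) and growing (grey diamonds) libraries, grouped by family and role, with a dotted line at 1 FPKM. OIS stands far to the right for FGF2, VEGFA, HGF and KITLG and far to the left for MET and KIT, and H3.3cs1 early stands far to the left for FLT1.

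Among the VEGF ligands, VEGFA rose in OIS and passed 2-fold in neither H3.3cs1 library. VEGFA, the main ligand that drives growth and leakiness of blood vessels, was at 177 FPKM in OIS, 31.0 in H3.3cs1 late, 19.1 in H3.3cs1 early and 20.4 in growing. It rose 8.32-fold in OIS, where it was the most abundant gene of all 46 and 96.4% of the compared genes were below it. VEGFC, a ligand for lymphatic vessels that acts through FLT4, was at 63.9 FPKM in OIS, 31.7 in H3.3cs1 late, 29.3 in H3.3cs1 early and 54.5 in growing. VEGFB, a ligand of FLT1, was at 31.5 FPKM in OIS, 23.9 in H3.3cs1 late, 33.7 in H3.3cs1 early and 19.1 in growing. Neither VEGFC nor VEGFB passed 2-fold against growing, though VEGFB did in H3.3cs1 early after rescaling to the same sum (1.04 in log2). VEGFA made up 64.7% of the summed FPKM of VEGFA, VEGFB, VEGFC and PGF in OIS, 35.7% in H3.3cs1 late, 23.2% in H3.3cs1 early and 21.6% in growing, and VEGFC made up 23.4%, 36.5%, 35.6% and 57.8% in the same order. PGF, another ligand of FLT1, stayed at or below 0.940 FPKM. FIGF was found only in a locus joined with PIR, at 1.16 FPKM in OIS, 4.15 in H3.3cs1 late, 3.45 in H3.3cs1 early and 3.20 in growing, and that value cannot be read as that of FIGF.

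Of the VEGF receptors only FLT1 was compared. FLT1, which binds VEGFA tightly and also exists as a soluble decoy that a value per gene does not separate, was at 10.2 FPKM in OIS, 5.91 in H3.3cs1 late, 1.59 in H3.3cs1 early and 9.41 in growing. It fell 4.01-fold in H3.3cs1 early and rose 2.67-fold in H3.3cs1 late against early. FLT4, at or below 0.166 FPKM, and KDR, the main signalling receptor of VEGFA, listed at 0 in OIS and at or below 0.0129 FPKM in the others, were too low to compare. Of 10 endothelial markers, the cells that carry these receptors in tissue, 4 were compared, and CLDN5 (11.6 FPKM in OIS against 0.178 in growing), ROBO4 (4.47 against 1.19) and TIE1 (4.05 against 0.631) rose in OIS. Of all compared genes, 9.13% rose in OIS. CLDN5 and TIE1 reached 1 FPKM in OIS alone, so they had to be higher there. The summed level of the 10 was 22.6 FPKM in OIS, 1.51 in H3.3cs1 late, 2.51 in H3.3cs1 early and 3.31 in growing. CDH5 was listed at 0 in all 4 libraries, PECAM1 and ERG were at or below 0.136 FPKM, and the part of such cells in the VEGF and FLT1 results was not tested.

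The sum over ligand genes counts the locus of FIGF joined with PIR, at or below 4.15 FPKM, as a ligand. Added up, the 29 ligand genes came to 678 FPKM in OIS, 209 in H3.3cs1 late, 193 in H3.3cs1 early and 263 in growing. FGF2, HGF, KITLG and VEGFA, a group formed after their values were seen, held 72.4% of this in OIS, 33.3% in H3.3cs1 late, 27.8% in H3.3cs1 early and 22.6% in growing. The 11 genes of kinase receptors came to 111 FPKM in OIS, 162 in H3.3cs1 late, 99.7 in H3.3cs1 early and 158 in growing.

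Behind the receptors, genes of feedback inhibitors rose in OIS and those of most adaptors passed 2-fold in none of the comparisons. Of 12 feedback inhibitors of receptor and ERK signalling, 10 were compared, with a median difference of 1.67 in OIS. There 7 rose and 0 fell, beside 9.13% of all compared genes that rose and 8.17% that fell. IL17RD was lower without passing 2-fold, at 0.665 FPKM in OIS against 1.26 in growing. DUSP4 was compared only through its value in OIS, 8.53 FPKM against 0.267 in growing, so it had to be higher there. DUSP6, a phosphatase of ERK, had 270.3 FPKM in OIS and 18.9 in growing (13.6-fold). DUSP4 (7.52-fold), the Sprouty gene SPRY2 (5.31-fold) and DUSP5 (4.74-fold), which encode a MAP kinase phosphatase, an inhibitor of RAS activation by receptors and a nuclear ERK phosphatase, followed. In H3.3cs1 late and H3.3cs1 early, 0 of the 10 passed 2-fold either way, with medians of -0.39 and -0.32. Of 21 adaptors and enzymes that bind activated receptors, 3 rose in OIS (median 0.55), beside 9.13% of all compared genes, and 0 passed 2-fold in the other comparisons. These were SHC1, an adaptor that recruits GRB2, at 508 FPKM in OIS against 186 in growing, PIK3CB, a catalytic subunit of PI3 kinase, at 11.9 against 4.27, and RASA1, a RAS GTPase-activating protein, at 74.6 against 35.3.

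The ETS factors ETV1, ETV4 and ETV5, known FGF response genes, went different ways. ETV4 rose 2.95-fold in OIS, at 23.0 FPKM in OIS against 7.13 in growing, beside 9.13% of all compared genes. In H3.3cs1 late ETV4 fell to 2.58 FPKM and ETV1 to 0.513 FPKM, against 3.17 in growing for ETV1. Of all compared genes, 5.47% fell in H3.3cs1 late. ETV1 was at 4.85 FPKM in H3.3cs1 early and fell 3.87-fold in H3.3cs1 late against early, beside 3.4% of all compared genes. ETV5 stayed between 17.1 and 23.7 FPKM.

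Of 7 proteases known to activate HGF or PDGF and their inhibitors, 4 were compared and 3 rose in OIS, beside 9.13% of all compared genes. PLAT, tissue plasminogen activator, which can activate PDGFC, was at 2242 FPKM in OIS, 67.8 in H3.3cs1 late, 22.7 in H3.3cs1 early and 111 in growing. It rose 19.9-fold in OIS and fell 4.75-fold in H3.3cs1 early. PLAU, urokinase, was at 2214 FPKM in OIS, 143 in H3.3cs1 late, 87.6 in H3.3cs1 early and 354 in growing, and fell in both H3.3cs1 libraries (2.47-fold in late and 4.01-fold in early). SPINT1, an inhibitor of HGF activators, rose 4.27-fold in OIS to 4.74 FPKM. The HGF activator genes HGFAC, ST14 and HPN were at or below 0.0602 FPKM.

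Of 10 co-receptors and carriers 4 were compared. NRP1, a co-receptor for VEGFA, was at 52.0 FPKM in OIS, 25.8 in H3.3cs1 late, 65.2 in H3.3cs1 early and 84.4 in growing. It fell 3.18-fold in H3.3cs1 late, beside 5.47% of all compared genes, and 2.47-fold in H3.3cs1 late against early, beside 3.4%. FLRT2, a membrane protein that can bind FGF receptors, rose 2.04-fold in H3.3cs1 late, beside 3.51% of all compared genes. FLRT3, of the same family, rose 2.15-fold in OIS and 2.90-fold in H3.3cs1 late against early, beside 9.13% and 5.47%. The co-receptors of the endocrine FGFs, KL and KLB, stayed at or below 0.168 FPKM.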

How the data were processed

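Poly(A) RNA of 4 IMR90 cultures, 1 for each group, was sequenced from libraries of the TruSeq RNA v2 kit, per the labels' protocols. The deposited values are FPKM, 1 per locus and library, made by the authors. Cufflinks 2.1.1, TopHat2 2.0.3, Bowtie2 and the build hg19 are listed, without role or order, per the submitters' processing notes. No source used here gives counts, how strand and multi-mapping were handled, or how libraries were normalized to each other. The header line of each deposited file is shifted by 1 name, so each library was taken from its recorded sample.

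Of 26468 loci, 2310 without a gene name were left out, loci of 1 symbol were summed, and genes that reached 1 FPKM in any library were compared as log2(FPKM + 1) with Python 3.11.15, pandas 2.3.3 and numpy 2.4.6. Low values, which step by whole fragments, put depth at about 85.6% of growing in OIS, 79.8% in H3.3cs1 late and 94.9% in H3.3cs1 early, a rough estimate. No interval can be given without counts. The call of a change at 2-fold was tested on simulated data.

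All 46 genes were accounted for, and those compared were given in every library. Of each of the 6 pathway lists (co-receptors, adaptors, feedback inhibitors, ETS factors, activating proteases and hypoxia-responsive genes) and 5 marker lists, up to 4 genes past 2-fold with the largest difference were named, and some further genes were chosen after their values were seen, NUDT6 among them. For the fibroblast markers only calls against growing were given. The genes and lists were chosen with earlier results of these data known. Tried alternatives were other pseudocounts, filters and scalings, the highest locus of a symbol, and joined loci left out.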

Additional observations from a re-analysis of the deposited data

Results flagged for a closer look

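KIT passed 2-fold in opposite directions at the 2 time points of the cleaved histone. Its difference in log2(FPKM + 1) was 1.92 in H3.3cs1 late and -1.0 in H3.3cs1 early, each against the same growing library. The early call was under 2-fold after centring on the median of all genes (-0.98) and after rescaling to the same sum (-0.82). Each time point is 1 library, no empty-vector culture of day 3 was analysed, and the difference between the time points was not tested.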

How the results depend on the processing

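No paired analysis was possible because each group has 1 library. Of 23 differences of at least 2-fold among the growth factor and receptor genes in the 4 comparisons, 0 reversed and 19 stayed past 2-fold under each alternative that gave a value. The other 4 (FGFR4 in OIS, KIT in H3.3cs1 early, and FGFRL1 and PDGFRB in H3.3cs1 late against early) are given beside their results. With a filter at FPKM of 5, 1 gene rose in H3.3cs1 late in place of 2, since FGF9 was no longer compared. In OIS 4 rose with that filter in place of 6, since FGFR4 and PDGFB were no longer compared. With a pseudocount of 0.1, 1 gene rose in H3.3cs1 early in place of 0 (FGFR4), and 2 fell in H3.3cs1 late against early in place of 1 (FGFR4 beside KITLG). After rescaling to the same sum, 5 genes rose in OIS in place of 6 (without FGFR4). With that rescaling 6 fell there in place of 4 (FGFR1 and the joined FIGF locus added). The number that fell in OIS was 5 with a pseudocount of 0.1 (the joined FIGF locus added) and with quantile normalization (FGFR1 added). After rescaling to the same sum, 1 gene rose in H3.3cs1 early (VEGFB), and in H3.3cs1 late against early 3 rose in place of 5 and 2 fell in place of 1 (PDGFC beside KITLG). Over all compared genes, the pseudocount of 0.1 moved the number lower in OIS to 1523 from 995, higher in H3.3cs1 late to 743 from 428, higher in H3.3cs1 early to 437 from 171, and lower in H3.3cs1 late against early to 910 from 414. Rescaling to the same sum moved the number higher in H3.3cs1 early to 316 and lower in H3.3cs1 late against early to 808. In OIS that rescaling moved the number higher to 808 from 1112 and the number lower to 1338 from 995. Without counts or replicates, the counting error of low genes such as FGF9, FGFR4 and PDGFB is unknown. The same holds for the low values of KIT and MET in OIS and for ratios over them.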

Other observations

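Of 10 hypoxia-responsive genes, a group that often includes VEGFA, 8 were compared, and in OIS 1 rose and 1 fell, with a median difference of 0.39, beside 9.13% of all compared genes that rose and 8.17% that fell. NDRG1, a stress-response gene, rose to 44.2 FPKM in OIS against 11.7 in growing, while SLC2A1, the glucose transporter GLUT1, fell to 22.8 FPKM against 94.7. In H3.3cs1 late, ANKRD37 rose, at 4.60 FPKM against 1.56 in growing, beside 3.51% of all compared genes. The median was 0.56, against -0.04 over all compared genes. In H3.3cs1 early, SLC2A1 and P4HA1, a collagen prolyl hydroxylase, fell, beside 3.96% of all compared genes. The median was -0.43, against -0.02 over all compared genes. In H3.3cs1 late against early 4 of the 8 rose, beside 5.47% of all compared genes, with medians of 0.85 and -0.04. SLC2A1 was at 169 FPKM in H3.3cs1 late against 31.7 in H3.3cs1 early, and ADM, the vasodilator adrenomedullin, at 133 FPKM against 47.2. Rescaling to the same sum moved the median of all genes to -0.26 in that comparison, and its effect on these 8 genes is not given.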
